A study of Mus musculus with 6 samples.

Results

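The genes described here encode the proteins of the cytosolic ribosome, the particle that translates messenger RNA in the cytoplasm. They were the protein-coding genes of the count table named Rpl or Rps followed by a digit, together with Rpsa, Rplp0, Rplp1 and Rplp2, without Rps6k kinases and without genes whose names carry "-ps". The rule found 86 of 31053 genes. Assigned by their names, 33 belong to the small subunit, 49 to the large subunit and 3 to the stalk of the large subunit. The last, Rps19bp1, is not a subunit but encodes a binding protein of the small-subunit protein RPS19. Their RNA was measured in muscle stem cells sorted from limb muscle of 6 mice, with a library for each mouse. The 3 control mice (WT) had the genotype Pax7nGFP/+;Pax7+/+;Dio2Fl/Fl and the 3 mutant mice (cD2KO) had Pax7nGFP/+;Pax7-CreERT2/+;Dio2Fl/Fl. All 6 therefore carried a Pax7-driven nuclear GFP, by which the cells were sorted, and floxed Dio2, all were given tamoxifen, and the study's methods put the mice at 3 to 4 months of age. The tamoxifen-inducible Cre was driven from Pax7 and was carried by the cD2KO mice alone, so that its presence and the deletion cannot be told apart. Dio2 encodes the type 2 deiodinase, which turns thyroxine into the active thyroid hormone T3. The question of the comparison was whether the RNA of the ribosomal proteins differed between stem cells with and without Dio2 deletion. WT mice 1, 2 and 3 are the mice c124, c129 and c130 of the labels, and cD2KO mice 1, 2 and 3 are fl125, fl126 and fl128.

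A ribosome is built of a small subunit, which reads the messenger RNA, and a large subunit, which joins the amino acids, and cells make the proteins of both in matched amounts. Their genes are among the most highly transcribed genes of most cells. Many of their messenger RNAs start with a C followed by a run of pyrimidines, the TOP motif (terminal oligopyrimidine), through which the kinase complex mTORC1 sets their translation. Quiescent muscle stem cells translate little protein and raise translation when they are activated.

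Total counts were 2184073 to 3897787 per mouse, so 3 counts correspond to 0.770 to 1.37 CPM (counts scaled to a library of 1e+06) before scaling. Dio2 was too low to check the deletion, with 21, 5 and 10 counts in WT mice 1 to 3 and 15, 5 and 1 counts in cD2KO mice 1 to 3, and the sources used here do not say which of its counted bases the deletion removes. All 12 muscle stem cell markers passed the minimum for testing. Of these, 3 (Itga7, Cdh15 and Myf5) were higher in cD2KO by the test below and none was lower. On the log2 scale 8 of the 12 were above 0 (higher in cD2KO) and 4 below. Their summed level was 1778 to 2333 CPM in WT and 2041 to 3214 CPM in cD2KO. By the same test 5.34% of all genes were higher and 6.62% lower, and 18.1% of all genes did not overlap between the groups. Markers of other cell types were also present. Immune markers had a summed level of 4055 to 7698 CPM in WT and 220.4 to 2779 CPM in cD2KO, with 3 of 12 tested lower in cD2KO (Ptprc, Cd68 and Adgre1), with at most 2 counts of Cd3e and with Cd79a at 0 in every mouse. All 12 were below 0 on the log2 scale and 10 did not overlap, but the count of 3 ran from 0 without cD2KO mouse 3 to 11 without cD2KO mouse 1, was 1 without WT mouse 2, WT mouse 3 or cD2KO mouse 2, and was 11 in limma voom. Mural markers, of the contractile cells around vessels, reached 5912 to 10046 CPM in WT and 11923 to 17696 CPM in cD2KO. Of 10 tested, 5 were higher, with 7 above 0 on the log2 scale and 3 below. Endothelial markers were lower in 6 of 10 tested (294.8 to 422 CPM in WT and 245 to 308 CPM in cD2KO), fibroadipogenic markers in 2 of 8 and Schwann cell markers in 1 of 6. With a mouse left out these counts were 4 to 8, 0 to 4 and 0 to 1, and the number of stem cell markers that were higher was 1 to 3. The part of these cell types in the results was not tested. In bulk RNA, fewer cells of a type and less RNA per cell cannot be told apart.

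The sequences at the transcription starts show what these genes share and where they differ. Each window below holds the 10 bases before an annotated start and the first 20 bases after it, read 5′ to 3′ on the gene's strand from RefSeq (build GRCm38.p6), with the motif in capitals where it was found. The motif searched was a C followed by at least 4 letters that are C or T, beginning within 5 bases of the start, on the gene's own strand. The first 4 windows are those of the 3 members that were lower in cD2KO, of which Rpl10a has a pair of annotated starts, and the others belong to members with the widest spread or to a gene and its retrocopy.
Rpl39, chrX:37085203-37085232, minus strand: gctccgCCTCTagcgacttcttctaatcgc
Rpl10, chrX:74270806-74270835, plus strand: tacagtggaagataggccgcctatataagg
Rpl10a, chr17:28328461-28328490, plus strand: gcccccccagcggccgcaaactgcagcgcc
Rpl10a, chr17:28328555-28328584, plus strand: atttgagcgcatgcgcaaagcgctctgcct
Rps6, chr4:86857348-86857377, minus strand: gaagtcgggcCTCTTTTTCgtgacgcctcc
Rpl35, chr2:39005112-39005141, minus strand: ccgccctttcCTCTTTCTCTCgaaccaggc
Rps27, chr3:90213629-90213658, minus strand: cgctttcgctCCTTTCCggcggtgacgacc
Rps27rt, chr9:114982720-114982749, minus strand: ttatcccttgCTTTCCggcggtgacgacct
Rps6, Rpl35, Rps27 and Rps27rt had the motif exactly at the annotated start, Rpl39 had a short one ahead of it, and Rpl10 and both starts of Rpl10a had none within reach. RefSeq promoters were matched by symbol for 66 of the 86 genes. Of their 78 promoters, 32 held the motif (41.0%), against 18.3% of all 32851 promoters, and 14 held it exactly at the start (17.9%), against 2.51% of all. An annotated start can differ by some bases from the start used in these cells, so a window without the motif says only that these letters were not found there. The median log2 fold change (cD2KO minus WT) was -0.08 for the 30 tested members with the motif and -0.11 for the 34 tested members with a promoter and no motif.

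The ribosomal protein genes were abundant in all 6 mice. Of the 100 genes with the highest mean CPM, 32 were members, and of the 50 highest, 18 were. No gene of the mitochondrial ribosome and none of the proteasome was among these 100. In total, 68 members had at least 100 CPM in every mouse. Levels per length of transcript ran from 22.1 to 8836 CPM per kb among the 84 members that passed the minimum. Rplp1, a stalk protein that helps to recruit the elongation factors, was the highest (8836 CPM per kb), followed by Rps21 (7391.5), Rpl26 (5765) and Rps29 (5396). The lowest were Rpl3l (22.1), Rps6 (23.2), Rpl7l1 (43.5) and Rpl15 (46.5). Whether reads came from whole transcripts or from their 3′ ends is not given in the sources used here, so neither CPM nor CPM per kb is a sure scale for comparing genes.

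Ribosomal protein genes have left many processed copies in the genome. Of the 86 members, 82 had at least one stretch of 50 bases in their longest coding transcript that also occurs in a transcript of another gene, and 30 had more than 50% of their 50-base stretches shared. Reads from such stretches can match several places and may have been dropped or moved by the counting. The annotation holds 296 pseudogenes named after these genes, of which 9 are in the count table. Among them, Rpl10-ps3 had 400, 443 and 331 counts in WT mice 1 to 3 and 176, 572 and 585 counts in cD2KO mice 1 to 3. Rpl10 itself had 394, 202 and 313 counts and then 172, 197 and 161 counts in the same order, so the copy was far above it in cD2KO mice 2 and 3. The part of this copy in the values of Rpl10 was not tested. Median levels were 1120 CPM per kb for the 54 tested members with at most 50% shared and 599 CPM per kb for the 30 with more. Rps6, with 84.6% shared, is therefore uncertain here, and the same holds for Rpl10 (85.4%) and Rpl10a (77.5%). Across the 84 members, the percent shared and log2 CPM per kb had r = -0.12 and Spearman's rho = -0.16, a description over genes that share the same 6 libraries. The percent shared and the log2 fold change (cD2KO minus WT) had r = -0.31 and rho = -0.25, with a median log2 fold change of -0.17 for the 30 members with more than 50% shared and -0.08 for the other 54.

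**Figure D1:**
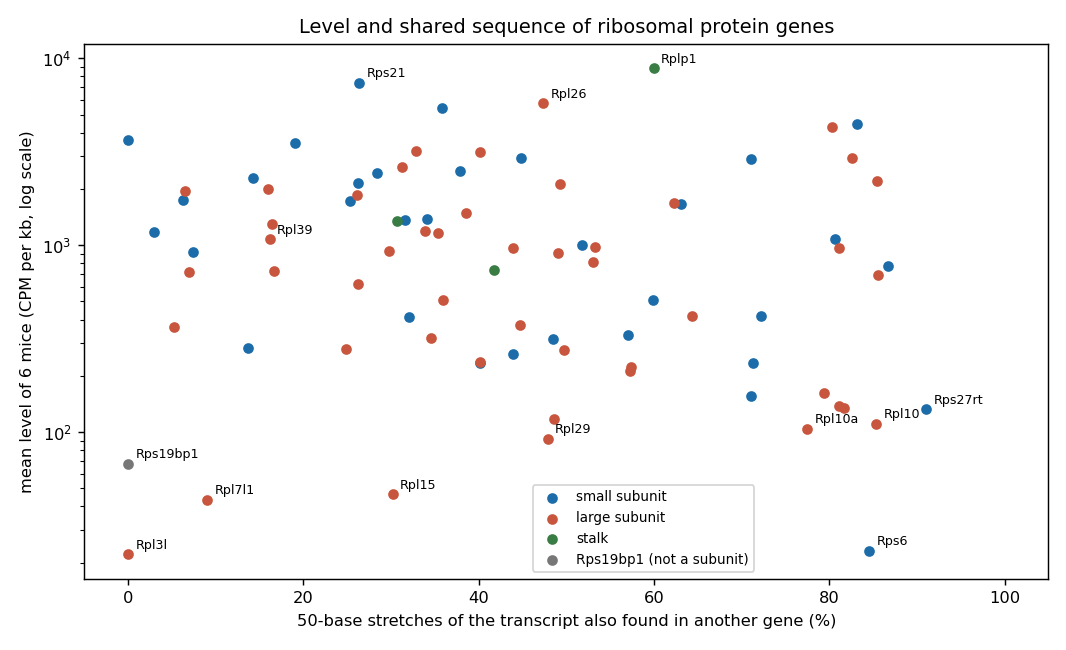
Mean level of each tested ribosomal protein gene in the 6 mice (CPM per kb of coding transcript, log axis) against the percent of its 50-base stretches that occur in another gene's transcript, with 1 point per gene coloured by subunit. Rps6 lies at the lower right with 84.6% shared and 23.2 CPM per kb, and Rpl3l at the lower left with none shared and 22.1 CPM per kb.

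As a class, the ribosomal proteins took shares of the RNA that overlapped between the groups. Their summed counts were 7.94%, 7.59% and 8.79% of all counts in WT mice 1 to 3 and 8.29%, 8.28% and 6.43% in cD2KO mice 1 to 3. The means were 8.11% ± 0.62 in WT and 7.66% ± 1.07 in cD2KO (SD, n = 3 each), and the values overlapped, with cD2KO mouse 3 the lowest of all 6. The small subunit took 3.68% ± 0.32 in WT and 3.44% ± 0.51 in cD2KO, the large subunit 3.87% ± 0.24 and 3.65% ± 0.51, and the stalk 0.55% ± 0.06 and 0.57% ± 0.07. On the scaled CPM, the log2 ratio of the summed level of all members, cD2KO over WT, was -0.02, and it was 0.07 without cD2KO mouse 3.

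**Figure D2:**
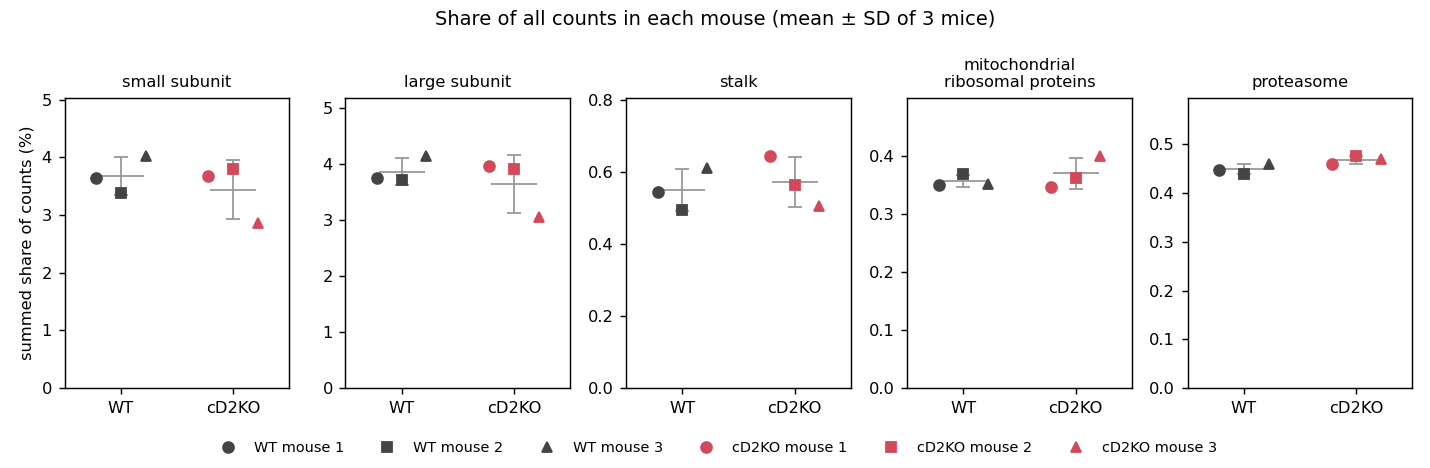
Summed share of all counts in each mouse (percent, axes from 0) for the small subunit, the large subunit, the stalk, the mitochondrial ribosomal proteins and the proteasome, with points for mice and bars for the mean ± SD of 3 mice. In the small and large subunits cD2KO mouse 3 is the lowest of the 6 mice (2.86% and 3.06%), and in the mitochondrial ribosomal proteins it is the highest (0.40%).

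Gene by gene, 3 of the 84 tested members were lower in cD2KO and none was higher at an unadjusted p under 0.05 in edgeR's quasi-likelihood test, which was fitted on all 11633 genes that passed the minimum. The 3 are 3.57% of the members tested, against 6.62% of all genes lower and 5.34% of all genes higher by the same rule. None of the 84 had an adjusted p under 0.1, where 0.774% of all genes did (0.00860% at an adjusted p under 0.05), and the smallest adjusted p among them was 0.340. With the Wald test of DESeq2, with limma voom and under every other scaling or minimum tried, the number of members higher was also 0. The median log2 fold change (cD2KO minus WT) of the 84 members was -0.10, against -0.02 over all genes tested, with 60 members below 0 and 24 above. It was -0.11 for the 33 small-subunit genes, -0.07 for the 47 tested large-subunit genes and 0.02 for the 3 stalk genes. The groups did not overlap in 5 members, with the cD2KO mice above the WT mice in 1 and below them in 4, where 18.1% of all genes tested were without overlap in either direction. The 95% confidence interval of the fold change lay within 2-fold in both directions for 74 of the 84 members (88.1%), against 49.2% of all genes tested, and within 1.5-fold for 30 (35.7%, against 9.52%).

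**Figure D3:**
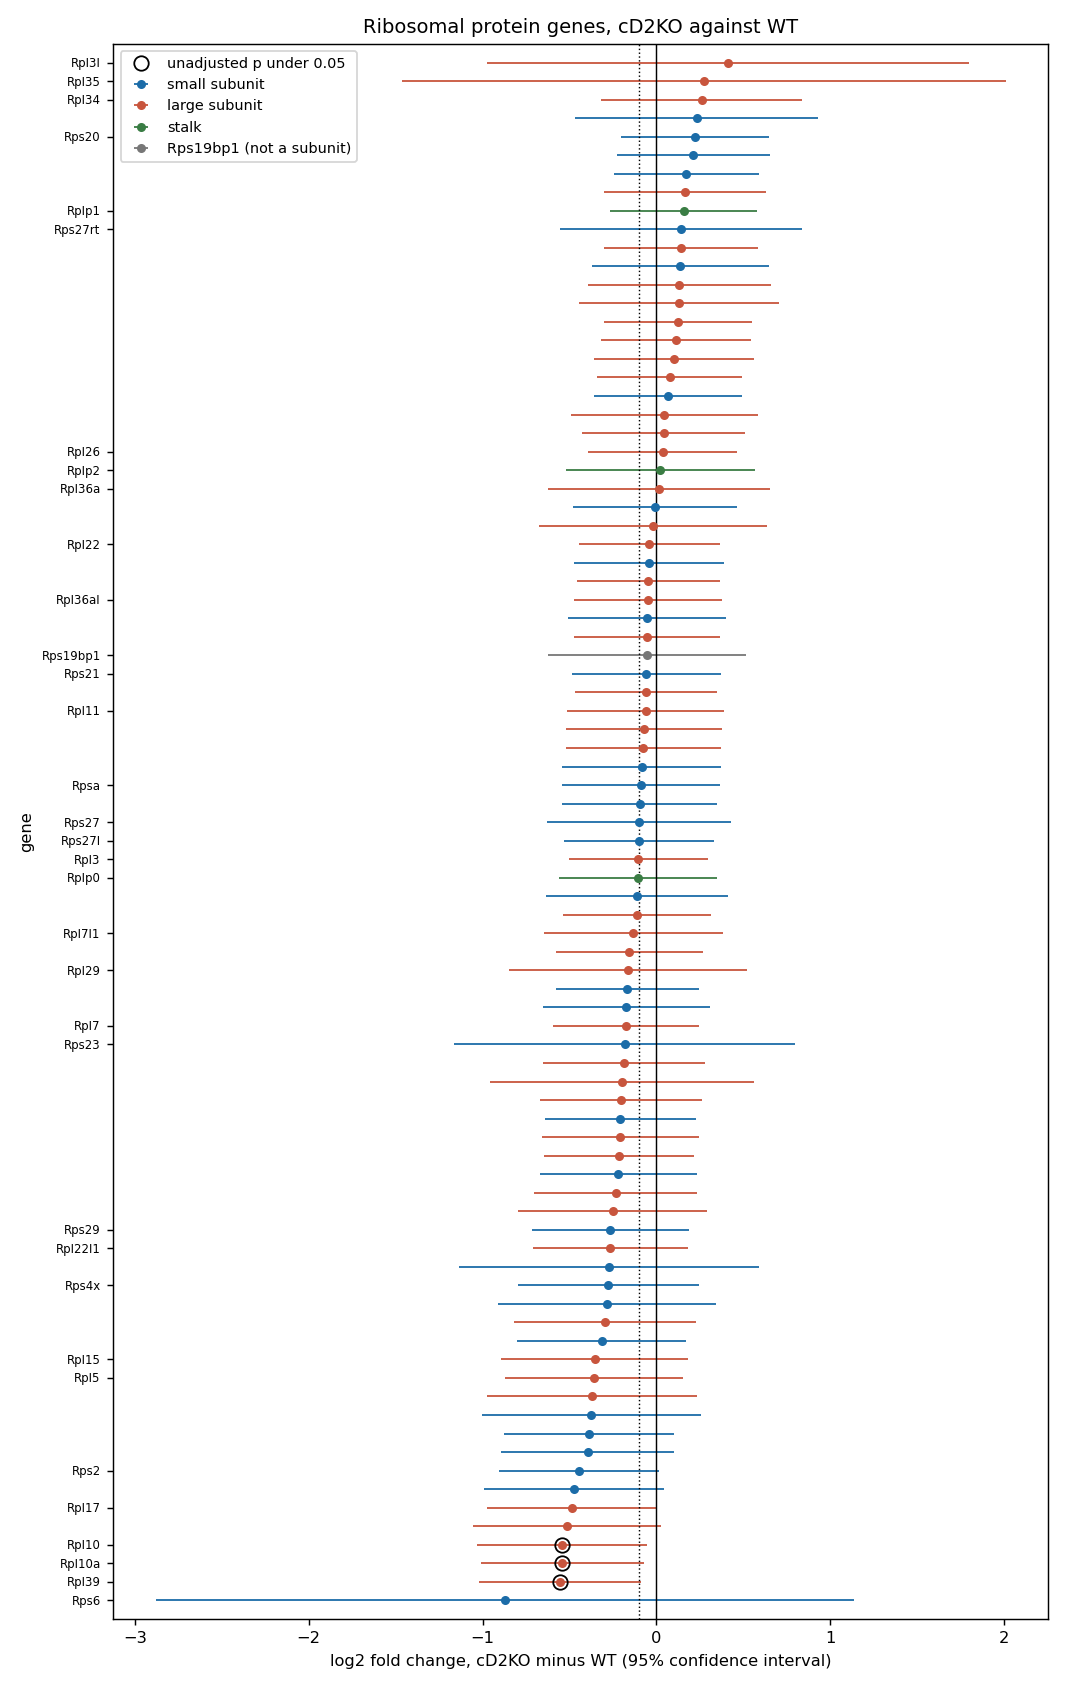
Log2 fold change (cD2KO minus WT) of the 84 tested ribosomal protein genes with its 95% confidence interval, in order of size and coloured by subunit, with names for the genes described in the text, with a dotted line at the median of -0.10 and circles around the 3 genes with an unadjusted p under 0.05. Most intervals span 0 and lie within 1 log2 unit, and those of Rps6, Rpl35 and Rpl3l are the widest.

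The 3 lower members belong to the large subunit. Rpl39 (ENSMUSG00000079641, GRCm38 chrX:37082520-37085402, minus strand) encodes a small protein that lines the tunnel through which the new chain leaves. It had 709, 803 and 841 CPM in WT mice 1 to 3 and 416, 679 and 508 CPM in cD2KO mice 1 to 3. All cD2KO mice were below all WT mice. The log2 fold change was -0.55 (SE 0.22, 1.47-fold lower, edgeR unadjusted p = 0.0235, adjusted p = 0.340).

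Rpl10a (ENSMUSG00000037805, chr17:28328471-28331033, plus strand) encodes the protein of the mobile L1 arm, where spent transfer RNA leaves. Its levels were 73.6, 86.1 and 75.5 CPM in WT mice 1 to 3 and 41.9, 64.7 and 54.6 CPM in cD2KO mice 1 to 3, again without overlap. Its log2 fold change was -0.54 (SE 0.22, edgeR unadjusted p = 0.0269, adjusted p = 0.356). On the opposite strand it overlaps CT025652.2, and since the use of strand in counting is not stated in the sources used here, reads of the overlap cannot be assigned to either.

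Rpl10 (ENSMUSG00000008682, chrX:74270812-74273135, plus strand) encodes a protein near the site of peptide bond formation that joins the large subunit late in its assembly. It had 101, 75.0 and 109 CPM in WT mice 1 to 3 and 78.3, 67.8 and 50.8 CPM in cD2KO mice 1 to 3. The groups overlapped, since WT mouse 2 was below cD2KO mouse 1. Its log2 fold change was -0.54 (SE 0.23, edgeR unadjusted p = 0.0328, adjusted p = 0.377). None of the 3 calls held when every mouse in turn was left out. Rpl39 lost its call without WT mouse 2 or 3 or cD2KO mouse 1 or 3 (log2 fold changes of -0.36 to -0.52), Rpl10a without WT mouse 2 (-0.45) or cD2KO mouse 1 (-0.36), and Rpl10 without WT mouse 1 or 3 or cD2KO mouse 2 or 3 (-0.38 to -0.56) and in the Wald test of DESeq2.

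The next members by p on the lower side were Rpl17, another protein of the exit tunnel, and Rps2, a small-subunit protein at the entry of the messenger RNA. Rpl17 had 477, 421 and 472 CPM in WT mice 1 to 3 and 411, 343 and 226 CPM in cD2KO mice 1 to 3. Rps2 had 323, 245 and 254 CPM in WT mice 1 to 3 and 213, 237 and 154 CPM in cD2KO mice 1 to 3. Neither overlapped between the groups, and neither passed the test (log2 fold changes of -0.48 and -0.44, unadjusted p = 0.0519 and 0.0581 in edgeR). Both did so with a minimum mean of 50 or with total counts alone as the scaling.

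On the higher side the smallest p was that of Rps20, a protein of the head of the small subunit and the one member whose cD2KO mice all lay above the WT mice. It had 3114, 2951 and 3337 CPM in WT mice 1 to 3 and 3422, 4149 and 3385 CPM in cD2KO mice 1 to 3, and the nearest mice of both groups were 3337 and 3385 CPM. Its log2 fold change was 0.22 (SE 0.20, edgeR unadjusted p = 0.285, adjusted p = 0.730).

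Rpl34 had 435, 344 and 443 CPM in WT mice 1 to 3 and 488, 683 and 294 CPM in cD2KO mice 1 to 3. The groups overlapped, with cD2KO mouse 3 the lowest of all 6 and cD2KO mouse 2 the highest. Its log2 fold change was 0.26 (edgeR unadjusted p = 0.347), and it passed the test only without cD2KO mouse 3 (0.52, unadjusted p = 0.0378). Rplp1, at 0.16, also overlapped.

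**Figure D4:**
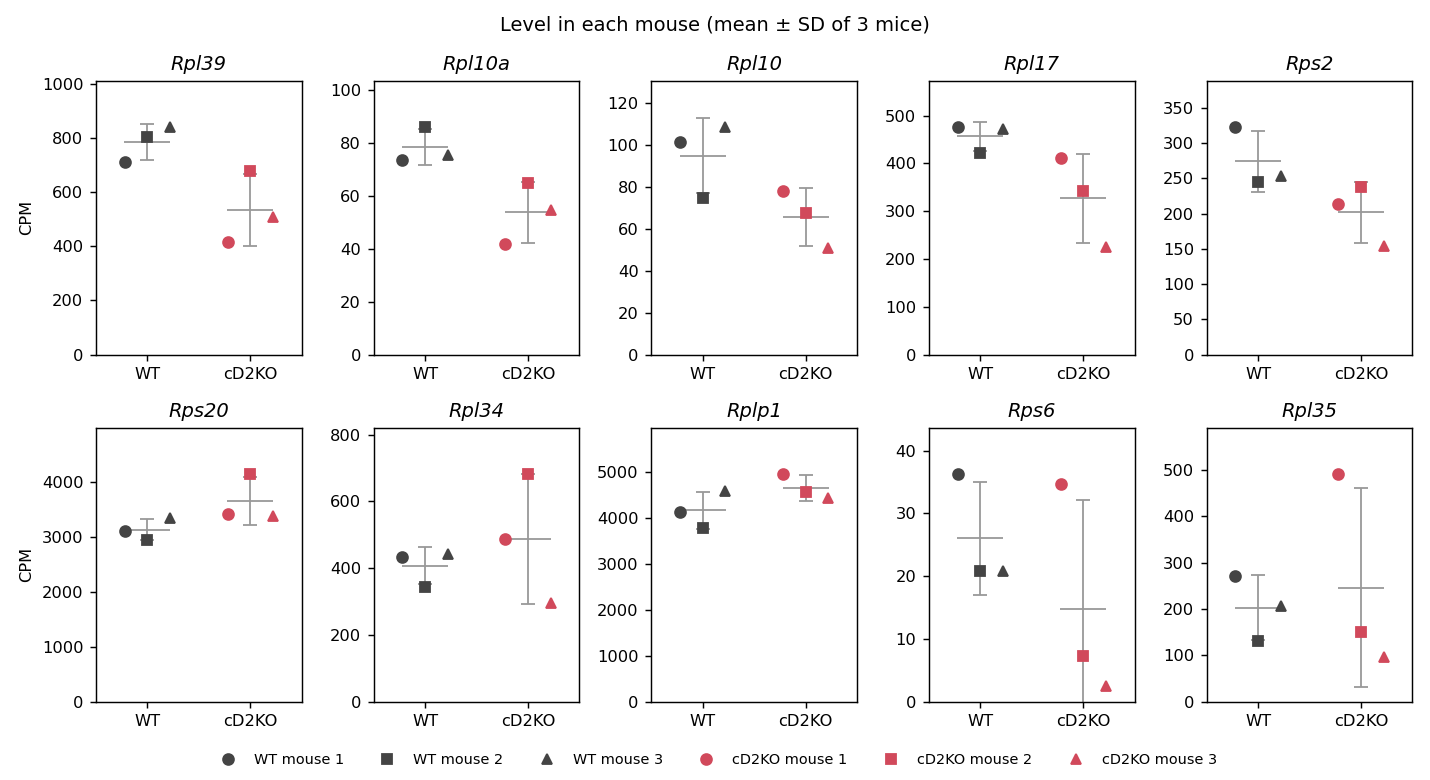
CPM in each mouse for the 5 members with the smallest p on the lower side (Rpl39, Rpl10a, Rpl10, Rpl17, Rps2), 3 from the higher side (Rps20, Rpl34, Rplp1) and Rps6 and Rpl35, with points for mice, bars for the mean ± SD of 3 mice and axes from 0. The cD2KO mice lie below the WT mice in Rpl39, Rpl10a, Rpl17 and Rps2, and in Rps6 and Rpl35 cD2KO mouse 1 stands far above the other cD2KO mice.

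Rps6, the small-subunit protein that the S6 kinases phosphorylate, departed most from the median shift of the members and had the widest interval. Its levels were 36.3, 20.8 and 20.9 CPM in WT mice 1 to 3 and 34.6, 7.22 and 2.53 CPM in cD2KO mice 1 to 3. The log2 fold change was -0.87 with a 95% confidence interval of -2.88 to 1.14 (edgeR unadjusted p = 0.334). In cD2KO mouse 1 it was as high as in WT, and leaving that mouse out gave -2.39 on the log2 scale at an edgeR adjusted p of 0.0220, the one adjusted p under 0.1 that any member reached in any alternative. Limma voom also called it, at -1.79 (unadjusted p = 0.0134).

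Rpl35, a protein at the mouth of the exit tunnel, split the same way. It had 271, 131 and 206 CPM in WT mice 1 to 3 and 492, 150 and 97.0 CPM in cD2KO mice 1 to 3. Its log2 fold change of 0.27 (edgeR unadjusted p = 0.704) turned to -0.68 without cD2KO mouse 1 (unadjusted p = 0.0397). Without that mouse 11 of 85 tested members were lower, and without cD2KO mouse 3 only 1 was, Rpl10a. Over all genes, the number lower ran from 399 to 874 with a mouse left out, against 770 with all mice. The value for each mouse is not given here, so the 11 have no matching share of all genes. The summed level of the immune markers also set cD2KO mouse 1 apart, at 220.4 CPM against 2340 and 2779 CPM in the other cD2KO mice. Their part in the values of Rps6 and Rpl35 was not tested.

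In 64 of the 84 members (76.2%, against 56.6% of all genes tested), the SD of log2 CPM among the cD2KO mice exceeded the size of the log2 fold change. The members' median SD was 0.23 in WT and 0.27 in cD2KO, below the 0.31 and 0.35 of all genes, and their median absolute log2 fold change was 0.16, against 0.28. The spread was shared between genes. WT mouse 2 was the lowest WT mouse in 58 members (69.0%, against 34.9% of all genes tested), cD2KO mouse 3 was the lowest cD2KO mouse in 66 (78.6%, against 33.4%), and both held in 56 (66.7%, against 12.9%). The median member was 0.32 log2 units below the other WT mice in WT mouse 2 and 0.38 below the other cD2KO mice in cD2KO mouse 3.

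Members far below the other WT mice in WT mouse 2 tended to be far below the other cD2KO mice in cD2KO mouse 3. Across the 84 members the deviations of these mice had r = 0.64 and rho = 0.64, where all 11633 genes had r = 0.15 and rho = 0.11. The values were 0.15 and 0.20 for 74 mitochondrial ribosomal proteins and -0.12 and 0.03 for 47 proteasome genes. Without Rpl3l, Rps27rt and Rps6, the members farthest out, they were 0.58 and 0.62. The deviations come from separate libraries, but all genes share them, so these values describe the 6 libraries and carry no test.

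Rps23, of the decoding site of the small subunit, was among the deepest, with 349, 187 and 403 CPM in WT mice 1 to 3 and 428, 262 and 140 CPM in cD2KO mice 1 to 3. Rpl29 had 82.4, 33.0 and 73.1 CPM in WT mice 1 to 3 and 70.1, 57.8 and 41.7 CPM in cD2KO mice 1 to 3. Rpl3l, the form of Rpl3 made in striated muscle, ran the other way, with 13.6, 33.0 and 12.9 CPM in WT mice 1 to 3 and 9.56, 18.2 and 49.9 CPM in cD2KO mice 1 to 3. In each group the mouse that was lowest in most ribosomal proteins was the highest in Rpl3l. The summed level of 8 muscle fibre markers was likewise highest in these mice, at 2883, 4163 and 1795 CPM in WT mice 1 to 3 and 3210, 3864 and 6090 CPM in cD2KO mice 1 to 3, and its part in these values was not tested. The depth of the deviation, averaged over both mice, had r = 0.06 and rho = 0.05 with transcript length and r = 0.01 and rho = 0.02 with GC content across the 84 members. It had r = 0.07 and rho = 0.24 with mean log2 CPM, and r = -0.25 and rho = -0.25 with the percent of shared sequence.

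**Figure D5:**
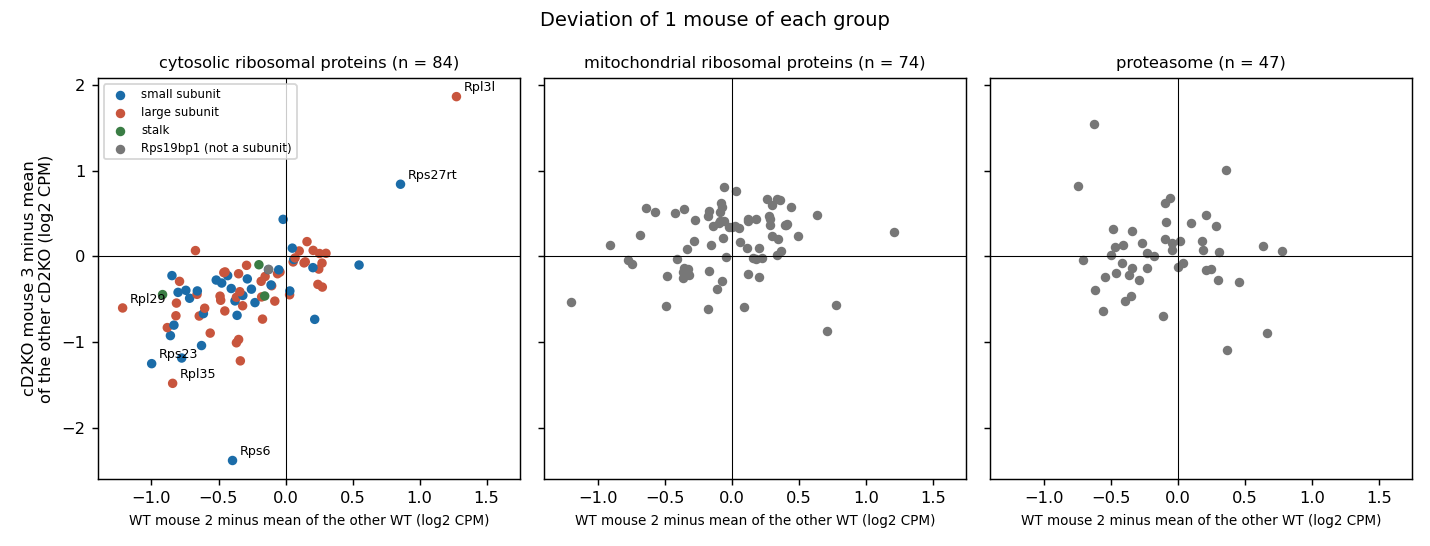
Deviation of WT mouse 2 from the mean of the other WT mice (horizontal axis) against that of cD2KO mouse 3 from the mean of the other cD2KO mice (vertical axis), in log2 CPM, with 1 point per gene for 84 cytosolic ribosomal proteins, 74 mitochondrial ribosomal proteins and 47 proteasome genes. Most cytosolic ribosomal proteins lie at the lower left along a rising line (r = 0.64), with Rpl3l and Rps27rt at the upper right. The mitochondrial ribosomal proteins lie mostly above 0 on the vertical axis (median 0.24) and the proteasome genes have medians of -0.10 and 0.04 on the horizontal and vertical axes.

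With both of these mice left out, an alternative added after the data were seen, 2 of 85 tested members were lower and none was higher. In the same run 421 of all 11556 genes tested were lower and 283 were higher. The median log2 fold change of the members was -0.09. Without cD2KO mouse 3 alone, the median was -0.01, and without WT mouse 2 alone it was -0.17, with -0.27 for the small subunit.

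The stalk proteins, which recruit translation factors to the ribosome, did not pass the test. Rplp0 had 657, 609 and 700 CPM in WT mice 1 to 3 and 759, 584 and 483 CPM in cD2KO mice 1 to 3. Rplp1 had 4121, 3791 and 4591 CPM and then 4961, 4553 and 4438 CPM, and Rplp2 had 692, 374 and 723 CPM and then 691, 641 and 488 CPM in the same order. The groups overlapped in all 3, with log2 fold changes of -0.11, 0.16 and 0.02 and unadjusted p in edgeR of 0.437 or more. The intervals were -0.56 to 0.35, -0.27 to 0.58 and -0.52 to 0.57.

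Rpl5 and Rpl11, which bind the 5S ribosomal RNA and, when free, restrain the p53 regulator MDM2, did not pass the test, nor did Rpsa (edgeR unadjusted p of 0.153, 0.775 and 0.691). Rpl5 had 211, 153 and 207 CPM in WT mice 1 to 3 and 198, 141 and 107 CPM in cD2KO mice 1 to 3 (log2 fold change -0.36). Rpl11 had 1172, 1149 and 1443 CPM in WT mice 1 to 3 and 1329, 1325 and 955 CPM in cD2KO mice 1 to 3 (log2 fold change -0.06). Rpsa, whose protein is also known as a laminin receptor, had 462, 409 and 562 CPM in WT mice 1 to 3 and 477, 513 and 360 CPM in cD2KO mice 1 to 3 (log2 fold change -0.09). In all 3 genes cD2KO mouse 3 was the lowest of the 6 mice.

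The 4 X-linked members, Rpl10, Rpl36a, Rpl39 and Rps4x, held 2 of the 3 calls, where 6.62% of all genes tested were lower. One of these calls is Rpl10, which is uncertain because 85.4% of its 50-base stretches are shared. The median log2 fold change of the 4 members was -0.41, and their summed level was 2532, 1983 and 2654 CPM in WT mice 1 to 3 and 2528, 2083 and 1525 CPM in cD2KO mice 1 to 3, with overlap. Rpl36a had 1180, 806 and 1200 CPM and then 1606, 954 and 665 CPM (log2 fold change 0.02), and Rps4x had 541, 299 and 504 CPM and then 427, 382 and 302 CPM (-0.28). Rpl36a and Rps4x did not pass the test. All 6 mice had counts of Y-linked genes (Ddx3y at 258 to 418) and at most 1 count of Xist.

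Several ribosomal protein genes have a second gene of related name, in some cases a near copy, and the balance of a pair does not depend on the scaling of the libraries. These ratios are of RNA and do not show which protein enters the ribosome. Of the pairs, 5 could be tested, with a two-sided exact permutation test over the 3 and 3 mice whose smallest possible p is 0.1. Rpl22l1, which can replace Rpl22 in the ribosome, stood at 14.7%, 16.9% and 17.6% of the CPM of Rpl22 in WT mice 1 to 3 and at 14.4%, 15.1% and 12.3% in cD2KO mice 1 to 3. The difference of the log2 ratio was -0.23 (exact permutation p = 0.2, adjusted p = 1 over the 5 pairs).

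Rpl36al, the autosomal copy of Rpl36a, was 17.3% to 28.3% of Rpl36a in WT and 15.6% to 29.7% in cD2KO. Rps27l was 16.5% to 30.3% of Rps27 in WT and 14.2% to 32.4% in cD2KO, and Rpl7l1 was 4.43% to 6.56% of Rpl7 in WT and 4.82% to 6.97% in cD2KO. Rpl3l was 2.24% to 5.48% of Rpl3 in WT and 1.89% to 9.28% in cD2KO. The differences of these log2 ratios were -0.01, -0.05, 0.08 and 0.30, each with an exact permutation p of 0.6 or more. In every pair the ranges of the groups overlapped.

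Rpl10l and Rpl39l, copies of Rpl10 and Rpl39 known from the testis, were the members that did not pass the minimum. Rpl10l had 0 counts in all 6 mice, which allows up to 0.770 to 1.37 CPM per mouse at 3 counts. Rpl39l had 17, 3 and 14 counts in WT mice 1 to 3 and 2, 16 and 9 counts in cD2KO mice 1 to 3.

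Ribosomal genes outside the naming rule were also read, and Fau and Rack1 did not pass the test. Fau, whose product is cleaved into ribosomal protein S30, had 240, 212 and 261 CPM in WT mice 1 to 3 and 225, 211 and 137 CPM in cD2KO mice 1 to 3 (log2 fold change -0.32, edgeR unadjusted p = 0.168). Rack1, a scaffold on the head of the small subunit, had a log2 fold change of -0.03. In 30 members, at least one small nucleolar RNA gene lies within the gene on the same strand, 58 in all. These 30 had 2 lower calls and a median of -0.11, and the other 54 tested members had 1 and -0.09. The 33 members on a fixed list of proteins with a counterpart in bacteria had a median of -0.11, and the other 50 tested subunits -0.08. The list went by gene name, so that Rpl3l and Rpl7l1 fell among the 50 while Rpl3 and Rpl7 were among the 33.

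The genes that build the ribosome were measured as well. Of 95 tested genes of ribosome biogenesis, which transcribe and process ribosomal RNA and assemble the subunits, none was higher and none lower at an unadjusted p under 0.05 in edgeR, and their median log2 fold change was 0.02. At most 2 passed in either direction in any alternative run. Their summed level was 4634 to 5018 CPM in WT and 4569 to 5225 CPM in cD2KO.

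Of 38 initiation factors and their partners, 2 were lower and none higher, with a median of 0.04. Eif3e, a subunit of the initiation factor eIF3, had 110.5, 129.9 and 116.6 CPM in WT mice 1 to 3 and 99.7, 82.5 and 65.1 CPM in cD2KO mice 1 to 3, without overlap (log2 fold change -0.53, edgeR unadjusted p = 0.0233, adjusted p = 0.340). Pabpc1, which binds the poly(A) tail, had 289, 378 and 348 CPM in WT mice 1 to 3 and 306, 225 and 190 CPM in cD2KO mice 1 to 3, with overlap (-0.49, adjusted p = 0.395). Among 17 genes of elongation and termination, Eef1a1, which brings transfer RNA to the ribosome and whose messenger RNA is a classic TOP messenger, was the only one called. It had 1255, 1099 and 1262 CPM in WT mice 1 to 3 and 983, 1000.5 and 553 CPM in cD2KO mice 1 to 3, without overlap (-0.51, edgeR unadjusted p = 0.0489, adjusted p = 0.417). Without cD2KO mouse 3 none of these 3 kept its call (-0.39, -0.35 and -0.28), and the same held without WT mouse 2 (-0.45, -0.39 and -0.56).

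Of 17 tested genes that handle the new chain, 2 were lower and 1 higher. Sec61b, a subunit of the channel into the endoplasmic reticulum, had 54.1, 43.4 and 62.3 CPM in WT mice 1 to 3 and 37.8, 32.3 and 23.1 CPM in cD2KO mice 1 to 3 (log2 fold change -0.79, edgeR unadjusted p = 0.00965, adjusted p = 0.223). Srp19, of the signal recognition particle, was lower by the same test (-0.47, adjusted p = 0.367), and Naa15, of the complex that acetylates new N-termini, was higher (0.49, adjusted p = 0.315). All 3 separated the groups. Srp19 kept its call only without WT mouse 1 or cD2KO mouse 3 when mice were left out in turn, and Naa15 lost it without cD2KO mouse 2 (0.47).

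In the mTORC1 and S6 kinase list, 1 of 35 tested genes was higher and 2 were lower, with a median of 0.01. The higher one was Rps6kb2, which encodes the S6 kinase S6K2, a kinase of RPS6. It had 49.2, 53.5 and 41.1 CPM in WT mice 1 to 3 and 91.1, 104 and 88.7 CPM in cD2KO mice 1 to 3. The lowest cD2KO mouse was well above the highest WT mouse. The log2 fold change was 0.98 (SE 0.20, 1.98-fold higher, edgeR adjusted p = 0.0885), and it passed the unadjusted threshold in all 17 alternatives run. Sesn1, which restrains mTORC1, was lower and without overlap (-0.51, adjusted p = 0.341), and Rps6ka1, a kinase downstream of ERK, was lower with overlap (-0.94, adjusted p = 0.409). Of 12 tested transcription regulators of ribosomal genes, Tbp, the TATA-binding protein, was lower (-0.80, adjusted p = 0.360) and none was higher. Myc was under the minimum. With mice left out in turn, Sesn1 lost its call without WT mouse 2 or cD2KO mouse 1 or 3 (-0.36 to -0.50), Rps6ka1 without WT mouse 2 or any cD2KO mouse (-0.36 to -1.08), and Tbp without WT mouse 1 or 3 or cD2KO mouse 1 or 2 (-0.69 to -0.82).

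Other protein complexes were read beside the cytosolic ribosome. Of 74 tested mitochondrial ribosomal proteins, 2 were higher and 1 lower with a median of 0.11, and of 47 tested proteasome genes, 3 were higher and none lower with a median of 0.05. The share of mitochondrial ribosomal proteins was 0.36% ± 0.01 in WT and 0.37% ± 0.03 in cD2KO, and that of the proteasome 0.45% ± 0.01 and 0.47% ± 0.01 (SD, n = 3 each). Immediate early genes, which rise within minutes of cell stress or activation and also during cell isolation, were lower in 10 of 19 cases with a median of -0.89. Without WT mouse 2 the count was 3 and the median -0.42, and without cD2KO mouse 3 the count was 5. Their summed level was 4376, 10223 and 6128 CPM in WT mice 1 to 3 and 4004, 5158 and 4602 CPM in cD2KO mice 1 to 3. WT mouse 2, the lowest WT mouse in most ribosomal proteins, was the highest in these genes, and their part in the ribosomal protein values was not tested.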

How the data were processed

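RNA of sorted muscle stem cells from 3 WT and 3 cD2KO mice was extracted with the RNeasy Mini Kit, prepared by a commercial digital RNA-seq service and sequenced on Illumina instruments. The authors deposited a table of raw counts per gene, made per the submitters' processing notes with bcl2fastq, STAR 2.6.0a and HTSeq 0.9.1 on mm10. Strand, read position and the treatment of duplicates are not given in the sources used here. Groups were taken from the genotype in the labels. The mice are separate animals, and the edgeR p-values set the difference between the groups against the spread between mice.

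Testing was limited to the 11633 of 31053 genes whose DESeq2-normalized count averaged over 10, the minimum stated in the study's methods. Libraries were scaled by TMM, and edgeR 4.0.16 (R 4.3.3) was fitted on these counts with the robust quasi-likelihood test and Benjamini-Hochberg adjustment. CPM are TMM-scaled, and log2 CPM carry a prior count of 2. Pairs of mice within a group differed beyond sampling noise (chi-square of at least 8.66 for each degree of freedom), so no library was a second reading of another. This value cannot tell 2 libraries of one animal from libraries of different animals, and that the mice are separate rests on their names in the labels. DESeq2 1.42.0, limma 3.58.1, other scalings and minimums, and each mouse left out in turn were alternatives. Paralog pairs were compared by an exact permutation test, and Python 3.11.15 was used for the remaining steps. Scripts were tested on simulated data. GENCODE M21 held 31011 of the 31053 gene identifiers and gave positions, and 50-base stretches were compared between its transcripts. The limit given for a count of 0 covers counting error only, and the confidence intervals of fold changes come from the edgeR fit and include the spread between mice.

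The members and lists were chosen with earlier results of these data known. Genes were named if they were members past the unadjusted threshold, among the 5 with the smallest p in each direction, under the minimum, in a paralog pair, X-linked, of the stalk, among the 3 farthest from the median shift in each direction, or Rps6, Rpsa, Rpl5 or Rpl11. From each other list, genes past the threshold were named, at most 5 in each direction. Some genes that the rule would name are not reported here. Members named for their level or for their spread within groups (Rps21, Rpl26, Rps29, Rpl15, Rps23, Rpl29, Rps27rt), and the comparison of WT mouse 2 with cD2KO mouse 3, were chosen after their values were seen.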

Additional observations from a re-analysis of the deposited data

How the results depend on the processing

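The number of ribosomal protein genes lower in cD2KO (3) was 5 with limma voom, 6 with a minimum mean of 50, 6 with no minimum and 7 with total counts alone as the scaling, and it was 0 at an adjusted p under 0.1. Leaving out each mouse in turn gave 1 to 11, with 11 without cD2KO mouse 1, 5 without WT mouse 2 and 1 without WT mouse 3 or cD2KO mouse 3. The number higher was 0 to 1, the 1 being Rpl34 without cD2KO mouse 3. Members without overlap between the groups (5) numbered 7 to 27 with a mouse left out, and 31 with both WT mouse 2 and cD2KO mouse 3 left out, an alternative chosen after seeing the data. Smaller groups overlap less often by construction, and the share of all genes without overlap in these runs is not given here. These counts therefore do not show that members separate more than other genes. Over all genes, the number lower (770) was 505 with a minimum mean of 50, which tests fewer genes, 399 to 874 with a mouse left out and 421 without both mice. The number for each mouse left out is not given here, so the counts of members have no matching share of all genes. The number higher (621) was 939 with no minimum, 402 to 933 with a mouse left out and 283 without both mice. The median log2 fold change of the members stayed below 0, at -0.17 to -0.01 with a mouse left out and -0.16 to -0.07 in the other alternatives. Among the genes followed by name, which are not all members, the log2 fold change of 14 changed sign in at least one alternative. Rpl35 without cD2KO mouse 1 (-0.68) was the one such value past the threshold. With a mouse left out the ranges were -0.68 to 0.66 for Rpl35, -0.0578 to 0.52 for Rpl34, -0.49 to 1.01 for Rpl3l, -0.30 to 0.0517 for Rpl7l1, -0.11 to 0.0201 for Rpl22, -0.36 to 0.27 for Rpl36a, -0.16 to 0.0653 for Rpl36al, -0.29 to 0.14 for Rps27, -0.26 to 0.0820 for Rps27l, -0.19 to 0.0513 for Rpsa, -0.26 to 0.0351 for Rplp0, -0.20 to 0.18 for Rplp2, -0.14 to 0.0801 for Rpl11 and -0.12 to 0.0852 for Rack1. Limma voom gave -0.0276 for Rpl35 and -0.0559 for Rpl36a, a minimum mean of 50 gave -0.0124 for Rpl36a and -0.00592 for Rplp2, and total counts alone gave -0.0311 for Rpl36a and -0.0310 for Rplp2. Without both mice Rack1 was at 0.0631, Rpl11 at 0.0189, Rpl22 at 0.00443, Rpl36al at 0.0304 and Rplp2 at -0.0899. The causes were not tested. Of all values of single genes and lists under the alternatives, 34 values of single genes changed sign in this way, 102 lost their call and 13 gained one. A further 104 moved (counts by over 1.5 times, list medians by over 1 SD between mice), and 1558 were counted as the same. Sign was followed only for single genes chosen by name. Some list medians near 0 also changed sign, such as mTORC1 and S6 kinase (0.01, down to -0.06) and ribosome biogenesis (0.02, down to -0.06). The log2 ratio of the summed level of the members did so too (-0.02, up to 0.07). No paired analysis was possible because the mouse names share no replicate number. With 3 mice per group and 2184073 to 3897787 counts per mouse, the 95% confidence interval of a member's log2 fold change reached a median of 0.47 to either side (1.38-fold), and sequence shared with other genes adds uncertainty that it does not cover.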
